A study of Homo sapiens with 22 samples.

Results

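Prostaglandin, lipoxygenase, phospholipase and annexin genes were examined in MDA-MB-231 cells, a human TNBC (triple-negative breast cancer) line grown from a breast adenocarcinoma. The members were the 9 listed genes PLA2G4A, PTGS1, PTGS2, PTGES, PTGER2, PTGER4, HPGD, ALOX15B and ANXA1, out of 20668 gene symbols in each file. They were listed as classical anti-inflammatory glucocorticoid targets, with earlier results of these data known, so counts of calls among them are a description. RNA-seq comprised 10 samples in 5 groups of 2 biological replicates, after 3 days in medium whose serum (5%) had been stripped with charcoal, which removes most steroid. The groups were vehicle, 100 nM Dex (dexamethasone, a synthetic glucocorticoid and full GR agonist) for 2 h or 4 h, and 10 μM CpdA (Compound A, a non-steroidal GR modulator) for 2 h or 4 h. GR is the glucocorticoid receptor, encoded by NR3C1. All groups were the same single cell line, which the authors describe as carrying a mutant p53. No gene was altered for the experiment, and the 2 ligands were given at different doses. The vehicle samples were labelled with no time, whereas their column headers carried 2 h for replicate 1 and 4 h for replicate 2, and both served as the reference for every treatment.

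Eicosanoids are signalling lipids made from arachidonic acid. Phospholipase A2 frees arachidonic acid from membranes, cyclooxygenases turn it into prostaglandin H2, PTGES converts that to prostaglandin E2, and HPGD inactivates prostaglandin E2, while lipoxygenases oxidize the same fatty acid along another branch. Glucocorticoids are known for lowering eicosanoid production in inflamed tissue, with repression of PTGS2 and induction of annexin A1, a phospholipid-binding protein that acts on formyl peptide receptors, as textbook examples.

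Levels are given as RPKM, the reads of a gene scaled to the length of its transcript and to the mapped reads of the library. RPKM moved in steps of 1 read, which gave the relative depth, from 1 for vehicle replicate 1 up to 1.212 for the deepest library (Dex 2 h replicate 2), or an estimated 51600000 to 62500000 mapped reads. The Dex response was present in the libraries: mean RPKM of TSC22D3 went from 9 in vehicle to 303 with Dex at 2 h and 310 at 4 h, that of FKBP5 from 6.5 to 74.2 and 207, that of PER1 from 1.67 to 36.4 and 37.6, and that of NR3C1 from 21.6 to 14.6 and 11. The line's markers VIM, CD44, KRT18 and EGFR were present in every sample and ESR1 and PGR did not exceed 0.00484 RPKM, but ERBB2 at 15.9 to 21.6 RPKM and EPCAM at 8.02 to 10.6 RPKM were not absent. Of 6 markers of other cell types, PTPRC, CD3E and CDH5 stayed at or under 0.063 RPKM, PECAM1 lay at 0.159 to 0.324 and ACTA2 at 1.27 to 1.55, whereas the macrophage marker CD68 was read at 31.4 to 34.9 RPKM in the 10 samples. In bulk RNA, a change in the share of cells that use a gene and a change in RNA per cell cannot be told apart.

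Each gene was tested with limma on log2(RPKM + 0.1), with the Benjamini-Hochberg adjustment over the 12713 genes with at least 0.5 RPKM in at least 2 samples, and a change was called at an adjusted p under 0.05. PTGS2, PTGES, ANXA1 and PTGER4 passed this filter in every sample. PTGS1 and ALOX15B passed it only through the Dex 4 h samples, and PTGER2 only through the Dex samples, so these 3 had to be high there. HPGD and PLA2G4A did not pass and were taken from the fit without a filter over all 20668 genes, and so the adjusted p of that fit is named as such.

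Dex raised both cyclooxygenase genes, the lipoxygenase gene ALOX15B, the prostaglandin E2 receptor gene PTGER2 and, in the fit without a filter, the prostaglandin-inactivating HPGD, while the Dex samples of ANXA1 and PTGES overlapped with vehicle. Of the 9 members, 7 were tested past the filter. At Dex 2 h, 4 of these 7 (PTGS2, ALOX15B, PTGER2 and PTGER4) were called, all higher, against 10.3% of all genes past the filter, and 3 of the 7 had passed only through Dex samples. At Dex 4 h, PTGS1, PTGS2, ALOX15B and PTGER2 were called, all higher, against 27.4% of those genes. CpdA at 2 h gave 0 member calls by limma against 6.18% of genes, with 2 members at an unadjusted p under 0.05 (PTGS2 and PTGER4, both on the higher side). CpdA at 4 h gave 3 calls against 20.5%, with ANXA1 higher and PTGES and PTGER4 lower. Without the filter, where 9 members were tested, the counts were 2, 5, 0 and 1 for these 4 treatments, against 5.74%, 16.3%, 2.56% and 11% of all genes. With Dex 2 h replicate 1 left out, PTGER2 and PTGER4 lost their calls at Dex 2 h. Without either Dex 4 h replicate, PTGS1 and ALOX15B fell below the filter and were not tested. Without vehicle replicate 1, the log2 fold change of PTGER4 at CpdA 2 h was 0.61. ANXA1 and PTGES lost their calls at CpdA 4 h without vehicle replicate 1 or either CpdA 4 h replicate. Without a filter the median log2 fold change of all 9 members was 0.50, 0.83, 0.11 and -0.11, beside -0.004, -0.02, -0.003 and -0.009 over all 20668 genes. All 4 treatments share the same vehicle samples.

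**Figure D1:**
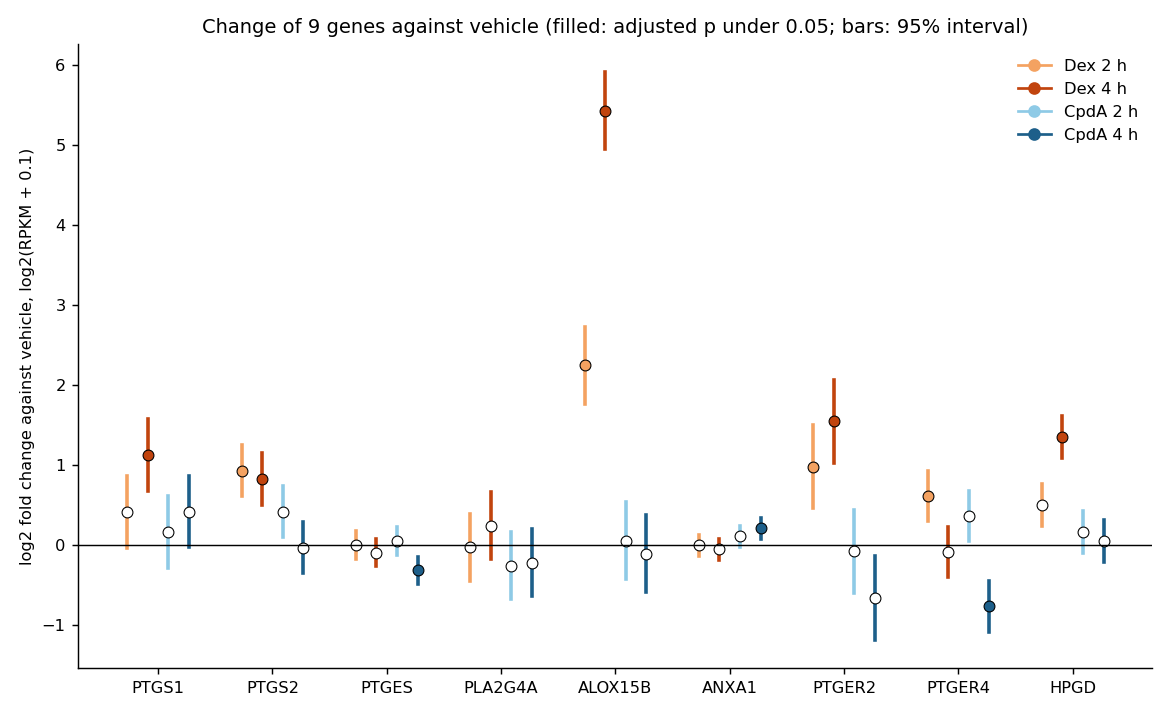
Log2 fold change against vehicle on the log2(RPKM + 0.1) scale for the 9 genes, with 4 treatments a gene (Dex in orange and red, CpdA in blue). Points are limma estimates, vertical bars 95% intervals, filled points have an adjusted p under 0.05, and HPGD and PLA2G4A come from the fit without a filter. ALOX15B stands at 5.43 at Dex 4 h, and the CpdA intervals include 0 except for PTGES, ANXA1, PTGER2 and PTGER4 at 4 h and PTGS2 and PTGER4 at 2 h.

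Promoter sequence is shown for PTGS2 and PTGER2, which rose under Dex at both times, and for ANXA1, which did not. RefSeq's promoter table (GRCh38.p14) matched 8 of the 9 members, all but ALOX15B, with 10 windows in all. The 250 bases before the start are printed, placed on GRCh37 by an exact match that was the only one on the chromosome. PTGS2 is chr1:186649556-186649805 on the minus strand, PTGER2 is chr14:52780780-52781029 on the plus strand and ANXA1 is chr9:75766531-75766780 on the plus strand. Capitals mark every match, on either strand, to TATAAA (the core promoter element), CGTCA (core of the cyclic AMP element), TTGCNNAA (C/EBP core), GGGCGG (GC box) and AGAACA (the arm of a GR element).
PTGS2: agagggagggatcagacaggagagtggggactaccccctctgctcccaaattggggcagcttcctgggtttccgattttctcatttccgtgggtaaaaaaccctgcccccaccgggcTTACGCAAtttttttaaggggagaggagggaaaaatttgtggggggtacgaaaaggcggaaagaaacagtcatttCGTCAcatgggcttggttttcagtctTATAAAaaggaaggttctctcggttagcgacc
PTGER2: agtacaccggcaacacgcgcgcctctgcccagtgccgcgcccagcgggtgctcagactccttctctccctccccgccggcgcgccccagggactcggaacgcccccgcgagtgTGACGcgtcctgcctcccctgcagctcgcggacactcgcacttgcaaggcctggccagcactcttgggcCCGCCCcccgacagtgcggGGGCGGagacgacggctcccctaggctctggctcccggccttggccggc
ANXA1: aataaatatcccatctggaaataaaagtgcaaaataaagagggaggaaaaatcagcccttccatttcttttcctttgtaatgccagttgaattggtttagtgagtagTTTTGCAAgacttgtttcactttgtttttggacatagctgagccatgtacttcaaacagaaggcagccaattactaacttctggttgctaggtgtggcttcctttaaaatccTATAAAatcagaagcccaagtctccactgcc
PTGS2 held TATAAA beginning 32 bases before the start, CGTCA at 58 bases and a C/EBP core at 133 bases. ANXA1 held TATAAA at 31 bases and a C/EBP core at 143 bases, while PTGER2 held no TATAAA and had CGTCA on the other strand at 137 bases and GC boxes at 68 and 49 bases. AGAACA was in 0 of the 10 member windows and in 12.4% of all 35116 windows. TATAAA was in 3 of 10 and 10.7%, CGTCA in 3 of 10 and 21.2%, the C/EBP core in 2 of 10 and 9.05%, and the GC box in 6 of 10 and 42.6%. These are letter matches in a short window, with no measure of binding. In GENCODE on GRCh37, the PTGS2 window lies in an intron of a longer PTGS2 transcript and 73 of its bases lie in the antisense lncRNA PACERR. The last 7 bases of the PTGER2 window lie in the first exon of a PTGER2 transcript, and 38 of its bases lie in an exon of an antisense lncRNA that has no symbol there.

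PTGS2 (COX-2, chr1:186640923-186650054, minus strand), the inducible cyclooxygenase, nearly doubled with Dex. Its RPKM was 2.90 and 2.49 in the vehicle replicates, 4.63 and 5.88 at Dex 2 h, and 4.28 and 5.47 at Dex 4 h. All 4 Dex samples lay above both vehicle samples. The mean was 1.95 times vehicle at Dex 2 h (5.25 ± 0.88 against 2.69 ± 0.29 RPKM, SD, n = 2) and 1.81 times at 4 h. The log2 fold changes were 0.93 (SE 0.14, adjusted p = 0.0024) and 0.83 (SE 0.14, adjusted p = 0.0022). The 2 Dex times did not differ beyond replicate spread (log2 difference -0.11, 95% interval -0.425 to 0.214). With CpdA, the RPKM was 3.48 and 3.78 at 2 h and 2.56 and 2.67 at 4 h. The CpdA 2 h samples lay above both vehicle samples, but their log2 fold change of 0.42 had an adjusted p of 0.13, and at 4 h the groups overlapped. PTGS2 was higher with Dex than with CpdA by 0.51 at 2 h (adjusted p = 0.042) and by 0.86 at 4 h (adjusted p = 0.0013) on the log2 scale. The 2 h difference had an adjusted p of 0.12 without a filter, 0.0695 without an abundance trend, 0.27 without Dex 2 h replicate 2, 0.24 and 0.12 without CpdA 2 h replicate 1 or 2, and 0.0697 and 0.0693 without CpdA 4 h replicate 1 or 2. The lower level at CpdA 4 h than at CpdA 2 h (log2 difference -0.45) was not called (adjusted p = 0.069). PTGS2's longest transcript overlaps PACERR, and whether counting used strand is not given in the sources used here, so reads of the 2 genes may not be separated.

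PTGS1 (COX-1, chr9:125132809-125157982, plus strand), the constitutive cyclooxygenase, was read far less than PTGS2 and was called at Dex 4 h but not at 2 h. It had 0.233 and 0.247 RPKM in vehicle (68 and 73 reads), 0.325 and 0.384 at Dex 2 h, and 0.654 and 0.634 at Dex 4 h (202 and 203 reads). Dex samples at both times lay above vehicle. At 4 h the mean was 2.69 times vehicle, with a log2 fold change of 1.13 (SE 0.20, adjusted p = 0.0026, and 0.0037 without a filter). At 2 h the log2 fold change was 0.42 (adjusted p = 0.27). With CpdA it had 0.341 and 0.227 RPKM at 2 h and 0.346 and 0.362 at 4 h, where the log2 fold changes of 0.16 and 0.42 did not pass (adjusted p = 0.72 and 0.18). The CpdA 4 h samples lay above both vehicle samples and the CpdA 2 h samples overlapped with them. PTGS1 was 0.71 higher at Dex 4 h than at CpdA 4 h (adjusted p = 0.022), with 0.103 and 0.0844 without CpdA 4 h replicate 1 or 2. It was also 0.71 higher at Dex 4 h than at Dex 2 h (adjusted p = 0.046), with 0.21 and 0.11 without Dex 2 h replicate 1 or 2 and 0.078 and 0.077 without CpdA 4 h replicate 1 or 2. Leaving out a Dex 4 h replicate took PTGS1 and ALOX15B below the filter, so they were not tested then.

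PLA2G4A (cytosolic phospholipase A2, chr1:186798081-186958113, plus strand), the enzyme that frees arachidonic acid, was near the limit of what was read, with 16 to 38 reads a sample. Its RPKM was 0.113 and 0.178 in vehicle, 0.147 and 0.132 with 2 h of Dex, 0.151 and 0.231 with 4 h of Dex, 0.0900 and 0.118 with 2 h of CpdA, and 0.115 and 0.103 with 4 h of CpdA. Each treated group overlapped with vehicle. In the fit without a filter the log2 fold changes ran from -0.26 at CpdA 2 h (95% interval -0.678 to 0.16) to 0.25 at Dex 4 h (-0.174 to 0.664). None was called, and changes within these intervals are not excluded. Both Dex 4 h samples lay above both CpdA 4 h samples. That log2 difference of 0.46 (95% interval 0.0448 to 0.882) was not called (adjusted p = 0.125).

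PTGES (microsomal prostaglandin E synthase, chr9:132500610-132515321, minus strand), which makes prostaglandin E2, was lower at CpdA 4 h and was not called with Dex. It had 16.0 and 14.3 RPKM in vehicle, 16.2 and 14.2 with 2 h of Dex, 14.0 and 14.3 with 4 h of Dex, 15.1 and 16.3 with 2 h of CpdA, and 12.0 and 12.3 with 4 h of CpdA. Both CpdA 4 h samples lay below every other sample, and the other treated groups overlapped with vehicle. At CpdA 4 h it was at 80.1% of vehicle, with a log2 fold change of -0.32 (SE 0.08, adjusted p = 0.019). The 95% intervals for Dex were -0.17 to 0.177 at 2 h and -0.266 to 0.0813 at 4 h on the log2 scale. The CpdA 4 h change had an adjusted p of 0.055 without a filter, 0.11 without vehicle replicate 1 (log2 fold change -0.23), and 0.12 and 0.081 without CpdA 4 h replicate 1 or 2. PTGES was also lower at CpdA 4 h than at CpdA 2 h, by 0.37 on the log2 scale (-0.37, adjusted p = 0.017), a call with an adjusted p of 0.0514 without a filter and from 0.0654 to 0.13 without any one of these 4 samples. At 4 h it was 0.22 higher with Dex than with CpdA, which was not called (adjusted p = 0.052).

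The 2 prostaglandin E2 receptors, both coupled to cyclic AMP, followed different courses. PTGER2 (EP2, chr14:52781023-52795316, plus strand) had 0.299 and 0.396 RPKM in vehicle, 0.928 and 0.650 at Dex 2 h, and 1.41 and 1.02 at Dex 4 h. All Dex samples lay above both vehicle samples, at 2.27 and 3.50 times the vehicle mean. The log2 fold change was 0.98 at 2 h (SE 0.23, adjusted p = 0.026) and 1.55 at 4 h (SE 0.23, adjusted p = 0.00095), and without a filter the adjusted p was 0.061 and 0.0047. The 2 h call had an adjusted p of 0.10 without vehicle replicate 1 and 0.20 without Dex 2 h replicate 1. With CpdA it had 0.319 and 0.327 RPKM at 2 h, and 0.211 and 0.156 at 4 h, both under the vehicle samples, where the log2 fold change was -0.66 (adjusted p = 0.075). The level at Dex exceeded that at CpdA by 1.05 at 2 h (adjusted p = 0.014) and by 2.21 at 4 h (adjusted p = 8.4e-05) on the log2 scale. The 2 h difference had an adjusted p of 0.13 without Dex 2 h replicate 1, and 0.0865 and 0.0762 without CpdA 2 h replicate 1 or 2.

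PTGER4 (EP4, chr5:40680017-40693837, plus strand) was lower at 4 h than at 2 h with either ligand. It had 3.82 and 2.67 RPKM in vehicle, 5.06 and 4.81 at Dex 2 h, and 3.15 and 2.87 at Dex 4 h. With CpdA it had 4.07 and 4.18 RPKM at 2 h, and 1.85 and 1.82 at 4 h. Every 2 h sample lay above both vehicle samples, Dex 4 h lay between them, and CpdA 4 h lay below both. With Dex the log2 fold change was 0.61 at 2 h (SE 0.14, adjusted p = 0.021) and -0.08 at 4 h (adjusted p = 0.70). With CpdA it was 0.36 at 2 h (adjusted p = 0.18) and -0.77 at 4 h (SE 0.14, adjusted p = 0.0047). From 2 h to 4 h it fell by 0.70 with Dex (log2 difference -0.70, adjusted p = 0.012) and by 1.13 with CpdA (-1.13, adjusted p = 0.0021). At 4 h it was 0.68 higher with Dex than with CpdA (adjusted p = 0.0044).

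The vehicle samples differed more in PTGER4 than the replicates of any treated group, and their column headers name different times, so the values against each of them are given. Vehicle was itself lower in the sample headed 4 h than in the one headed 2 h, in the direction of the time differences with both ligands. Against vehicle replicate 1 alone, headed 2 h, the log2 fold change was 0.36 at Dex 2 h (adjusted p = 0.042) and 0.11 at CpdA 2 h (adjusted p = 0.71). Against vehicle replicate 2 alone, headed 4 h, it was 0.17 at Dex 4 h (adjusted p = 0.22) and -0.52 at CpdA 4 h (adjusted p = 0.0072). With the headers crossed, replicate 2 gave 0.86 at Dex 2 h (adjusted p = 0.00051) and 0.61 at CpdA 2 h (adjusted p = 0.0055), and replicate 1 gave -0.33 at Dex 4 h (adjusted p = 0.026) and -1.02 at CpdA 4 h (adjusted p = 0.00035). The Dex 2 h call had an adjusted p of 0.14 and 0.082 without Dex 2 h replicate 1 or 2, and 0.077 without a filter, and the Dex time difference had 0.089 and 0.060 without the same replicates. The difference of 0.25 between Dex and CpdA at 2 h was not called (adjusted p = 0.32).

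HPGD (15-hydroxyprostaglandin dehydrogenase, chr4:175411326-175444305, minus strand), which inactivates prostaglandin E2, was read rarely in vehicle and rose with Dex at 4 h. It had 0.122 and 0.108 RPKM in vehicle (19 and 17 reads), 0.193 and 0.218 at Dex 2 h (34 and 41 reads), and 0.494 and 0.412 at Dex 4 h (81 and 70 reads). The groups did not overlap, and the Dex 4 h mean was 3.93 times vehicle. In the fit without a filter the log2 fold change was 0.50 at 2 h (SE 0.11, adjusted p = 0.0502) and 1.36 at 4 h (SE 0.11, adjusted p = 0.00034), and the 4 h level exceeded the 2 h level by 0.85 (adjusted p = 0.0086). Without Dex 2 h replicate 1 the time difference was 0.79 and did not pass. With only the 4 samples compared, the 4 h call (adjusted p = 0.0569) and the time difference (0.147) did not pass. With CpdA the RPKM was 0.131 and 0.154 at 2 h and 0.117 and 0.128 at 4 h, and the log2 fold change was 0.17 (adjusted p = 0.55) and 0.05 (adjusted p = 0.89). The CpdA 2 h samples lay above both vehicle samples, and the CpdA 4 h samples overlapped with them. At 4 h, HPGD was 1.31 higher with Dex than with CpdA on the log2 scale (adjusted p = 0.00032).

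ALOX15B (15-lipoxygenase type 2, chr17:7942352-7952452, plus strand), which oxidizes arachidonic acid, rose with Dex from almost no reads to a level near that of PTGS2. It had 2 reads in each vehicle sample (0.0144 and 0.0142 RPKM), 62 and 84 reads at Dex 2 h (0.392 and 0.498 RPKM), and 729 and 715 reads at Dex 4 h (4.95 and 4.69 RPKM). Every Dex sample lay above every other sample, and the Dex 4 h samples above those at 2 h. Reads per depth were 31.3 times vehicle at Dex 2 h (exact 95% counting interval 11.97 to 116.4) and 337.5 times at Dex 4 h (131.5 to 1240), and 10.78 times higher at 4 h than at 2 h (9.09 to 12.87), where the intervals cover counting error only. On the log2(RPKM + 0.1) scale, which understates the change of a gene this low, the fold changes were 2.25 (SE 0.21, adjusted p = 0.00011) and 5.43 (SE 0.21, adjusted p = 1.9e-07), and 0.00011 and 1.5e-06 without a filter. The difference between the 2 Dex times was 3.18 (adjusted p = 8.8e-05). With CpdA it had 3 reads in each 2 h sample, and 2 and 0 reads at 4 h, where a count of 0 allows up to 0.0185 RPKM. The log2 fold changes with CpdA were 0.05 and -0.11 (adjusted p = 0.92 and 0.77), with counting intervals for the read ratio of 0.309 to 6.278 and 0.03927 to 3.029.

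ANXA1 (annexin A1, chr9:75766781-75785309, plus strand) was the most highly read member, at 353 to 454 RPKM, and was not called with Dex. It had 386 and 374 RPKM in vehicle, 391 and 368 after Dex for 2 h, and 381 and 353 after Dex for 4 h. With CpdA it had 419 and 402 RPKM at 2 h, and 454 and 426 at 4 h. Dex overlapped with vehicle at both times, and every CpdA sample lay above both vehicle samples. The log2 fold change with Dex was -0.002 at 2 h (95% interval -0.131 to 0.127) and -0.05 at 4 h (-0.181 to 0.0767). Quantile normalization gave -0.15 at Dex 4 h (adjusted p = 0.0089), and median scaling gave 0.02. At CpdA 4 h the mean was 1.16 times vehicle (440 ± 20 against 380 ± 9 RPKM, SD, n = 2), a log2 fold change of 0.21 (SE 0.06, adjusted p = 0.030). That call was lost without a filter (adjusted p = 0.079), without an abundance trend (0.054) and with any one of 6 samples left out. It held with quantile normalization (0.14, adjusted p = 0.016) and median scaling (0.28, adjusted p = 0.019). The call was also kept when replicate number entered the model. In that model the SE of ANXA1 between Dex and CpdA at 2 h was 0.031, against 0.057 in the main fit. Of 19 alternatives for ANXA1 at CpdA 4 h, 8 lost the call, and the lowest adjusted p was 0.00264. The log2 fold change was 0.23 and 0.19 without vehicle replicate 1 or 2, and 0.21 without either CpdA 2 h replicate. It was 0.16 and 0.26 without CpdA 4 h replicate 1 or 2. ANXA1 was lower with Dex than with CpdA at 4 h by 0.26 (-0.26, adjusted p = 0.0065), and this had 0.065 without CpdA 4 h replicate 1.

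**Figure D2:**
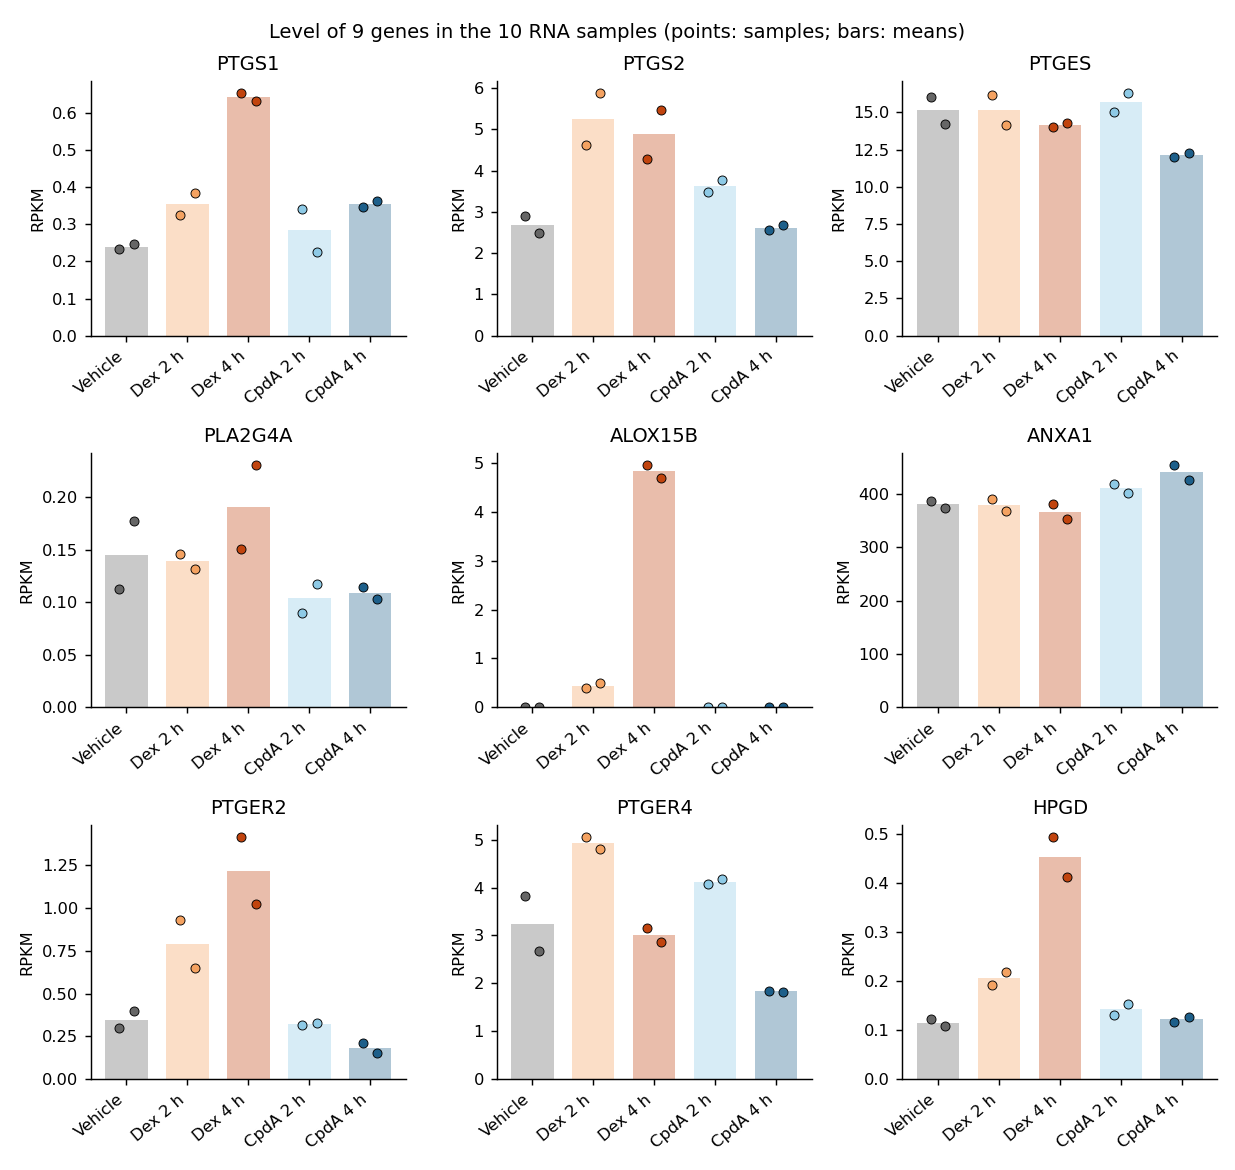
RPKM of the 9 genes in the 10 samples, with 1 panel a gene and its own axis from 0. Points are samples and bars group means, and ALOX15B is near 0 outside the Dex groups while the ANXA1 bars differ little, from 367 to 440 RPKM.

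The ligands, and the times of each ligand, were also compared directly. PTGS1 and ALOX15B had passed the filter only through the Dex 4 h samples, and PTGER2 only through the Dex samples. Their higher level there was part of how they entered the test, so the counts past the filter are no independent support. At 2 h, 3 of the 7 members tested past the filter (PTGS2, ALOX15B and PTGER2) were called, all higher with Dex, against 13.7% of genes past the filter, and 2 were called without a filter, where PTGS2 was not. At 4 h, 6 were called, with PTGS1, PTGS2, ALOX15B, PTGER2 and PTGER4 higher and ANXA1 lower with Dex, against 33.4% of genes, and HPGD was called in the fit without a filter, where 19.8% of genes were. Between Dex 2 h and 4 h, 3 were called against 13.6% (PTGS1 and ALOX15B higher at 4 h, PTGER4 lower), and HPGD in the fit without a filter against 6.12%. Between CpdA 2 h and 4 h, PTGES and PTGER4 were called against 12.4%, both lower at 4 h. In the first comparison only ALOX15B was still called without either CpdA 2 h replicate. Between the Dex times only ALOX15B was still called without either Dex 2 h replicate. Without either Dex 4 h replicate, PTGS1 and ALOX15B were not tested between the Dex times, and PTGER4 was still called. Between the CpdA times only PTGER4 was still called without any one CpdA sample.

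The order of the members by level differed between vehicle and Dex 4 h. In vehicle the mean RPKM was 380 for ANXA1, 15.1 for PTGES, 3.24 for PTGER4, 2.69 for PTGS2, 0.348 for PTGER2, 0.240 for PTGS1, 0.145 for PLA2G4A, 0.115 for HPGD and 0.0143 for ALOX15B. Of the neighbours in this order, PTGER4 and PTGS2 overlapped between samples, as did PLA2G4A and HPGD. At Dex 4 h ANXA1 (367) and PTGES (14.2) still led, followed by PTGS2 (4.88), ALOX15B (4.82), PTGER4 (3.01), PTGER2 (1.22), PTGS1 (0.644), HPGD (0.453) and PLA2G4A (0.191 RPKM), and only PTGS2 and ALOX15B overlapped. ALOX15B moved from the lowest of the 9 to the level of PTGS2.

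**Figure D3:**
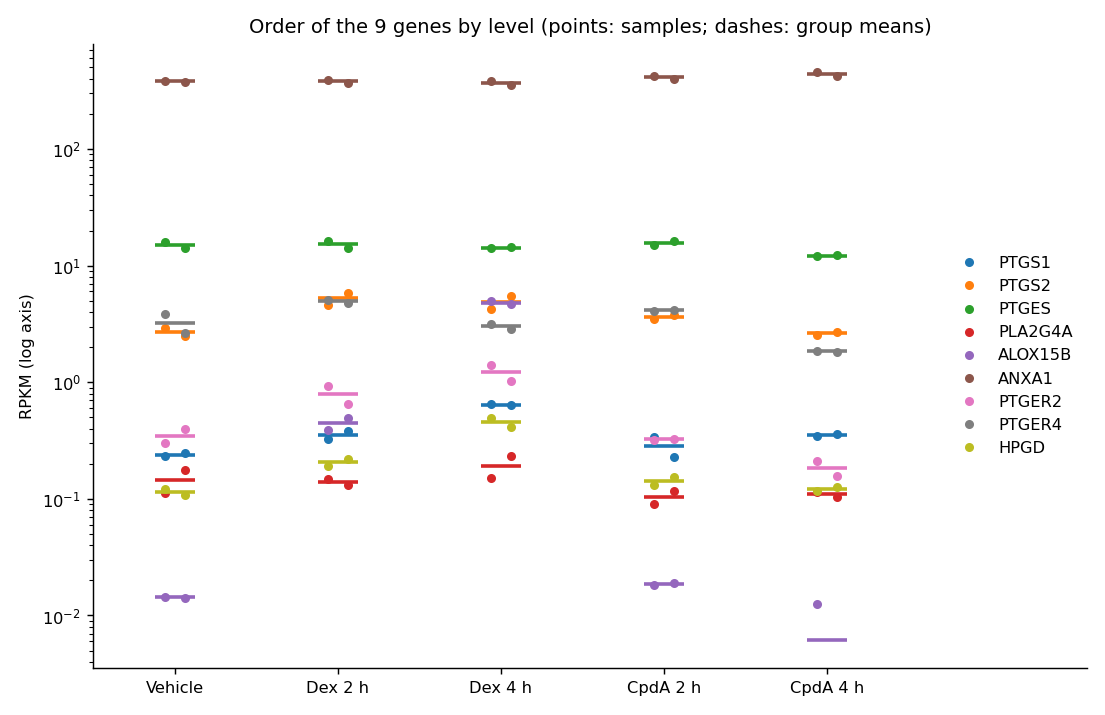
RPKM of the 9 genes on a log axis in the 5 groups. Points are samples and dashes group means, and the sample with 0 reads of ALOX15B at CpdA 4 h has no point. ALOX15B is lowest in vehicle (mean 0.0143 RPKM) and beside PTGS2 at Dex 4 h (4.82 and 4.88 RPKM).

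Of 64 further genes of these pathways, 55 were in the files and 30 passed the filter. Dex at 2 h gave 2 higher and 0 lower, Dex at 4 h 5 higher and 1 lower, CpdA at 2 h 1 higher and 0 lower, and CpdA at 4 h 5 higher and 2 lower, with median log2 fold changes of 0.04, 0.005, 0.04 and 0.02. The shares over all genes past the filter were 10.3%, 27.4%, 6.18% and 20.5%, and the counts out of 30 lie near or below these shares. Without Dex 4 h replicate 2 the Dex 4 h count was 10, and the CpdA 2 h count was 0 or 2 with any one sample left out. The CpdA 4 h count fell from 7 to 2 without vehicle replicate 1 or either CpdA 4 h replicate, and to 3 without vehicle replicate 2 or either CpdA 2 h replicate. FPR1, a formyl peptide receptor on which annexin A1 acts, had 3.93 and 3.72 RPKM in vehicle, 6.70 and 5.74 at Dex 2 h, and 12.7 and 11 at Dex 4 h, with log2 fold changes of 0.68 (adjusted p = 0.0014) and 1.60 (adjusted p = 2.5e-06). TBXA2R, the thromboxane receptor, had 1.04 and 0.992 RPKM in vehicle, 2.03 and 2.06 at Dex 2 h, and 2.33 and 2.09 at Dex 4 h, with log2 fold changes of 0.95 (adjusted p = 0.00026) and 1.05 (adjusted p = 6.3e-05). It was lower at CpdA 4 h, with 0.804 and 0.749 RPKM (-0.35, adjusted p = 0.041). ALOX5AP, which presents arachidonic acid to 5-lipoxygenase, had 0.230 and 0.152 RPKM in vehicle and 0.610 and 0.434 at Dex 4 h (log2 fold change 1.10, adjusted p = 0.019), and passed the filter only through Dex samples. ANXA10, another annexin, had 0.297 and 0.319 RPKM in vehicle and 0.734 and 0.766 at CpdA 4 h (log2 fold change 1.06, adjusted p = 0.012), and passed the filter only through those samples.

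By list, the phospholipases A2 had 6 tested genes with 0 calls under Dex at either time (0 at an unadjusted p under 0.05), while PLA2G12A was lower at CpdA 4 h (-0.28, adjusted p = 0.032). Of the prostanoid synthases and carriers, 8 were tested. AKR1C3, a prostaglandin F synthase, was called higher at Dex 4 h, CpdA 2 h and CpdA 4 h, with log2 fold changes of 0.20, 0.19 and 0.35. ABCC4, a transporter that exports prostaglandins, was higher at Dex 4 h (0.54, adjusted p = 0.0011), and PTGR2, a prostaglandin reductase, was lower there (-0.21, adjusted p = 0.026). At CpdA 4 h, PTGR1, a reductase that inactivates leukotriene B4 and prostaglandins, was higher (0.47, adjusted p = 0.00015), as was PTGES3, cytosolic prostaglandin E synthase and an HSP90 co-chaperone (0.18, adjusted p = 0.032). ANXA7 was higher at CpdA 4 h (0.14, adjusted p = 0.021). These smaller changes were picked for having passed the test, after their values were seen.

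**Figure D4:**
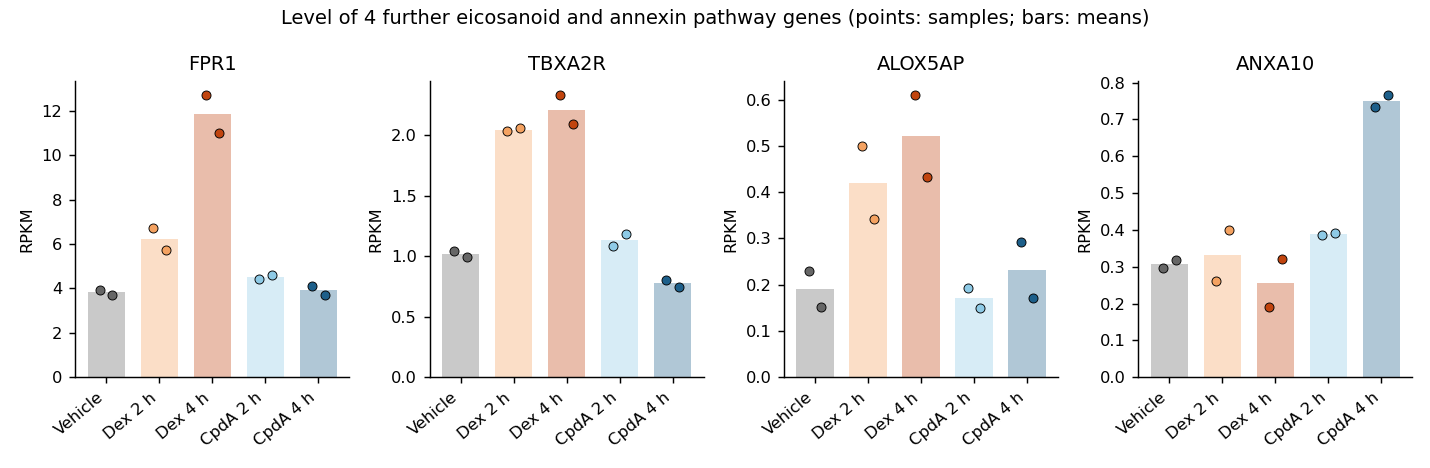
RPKM of FPR1, TBXA2R, ALOX5AP and ANXA10 in the 10 samples, with 1 panel a gene and each axis from 0. Points are samples and bars group means. FPR1 reaches 12.7 and 11 RPKM at Dex 4 h, and ANXA10 reaches 0.734 and 0.766 RPKM at CpdA 4 h.

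Genes whose pattern over the 10 samples was most like that of a member are given as a description, by Pearson's r of log2(RPKM + 0.1), since all points share the same 5 groups and libraries. ALOX15B was closest to ABLIM3, GPR153 and ADAMTS8 (r = 0.998, 0.997 and 0.997). PTGS2 was closest to PPARGC1A, MCL1 and KLF3 (r = 0.991, 0.970 and 0.964), and MCL1, an apoptosis inhibitor, had mean RPKM of 92.7 in vehicle, 163 and 165 with Dex at 2 h and 4 h, and 127 and 88.4 with CpdA. PTGS1 was closest to ZBTB7C, PRDX6 and PRICKLE4 (r = 0.968, 0.958 and 0.944), where PRDX6 is a peroxiredoxin with phospholipase A2 activity and went from 120 RPKM in vehicle to 178 at Dex 4 h. PTGER2 was closest to EMP2, PTTG1IP and CTNNBIP1 (r = 0.992, 0.985 and 0.985), PTGER4 to DPYSL2, MRPS31 and SAP30 (r = 0.982, 0.981 and 0.973), PTGES to THAP1, COG4 and C1QTNF6 (r = 0.971, 0.948 and 0.942), and ANXA1 to GPX3, COPZ1 and PYCR1 (r = 0.989, 0.978 and 0.972).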

How the data were processed

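RNA-seq was measured in 10 of the 22 samples of the series, and the other 12, from ChIP assays, were not analysed here. The authors sequenced single-end libraries (Illumina TruSeq RNA), aligned reads with TopHat 2.0.13 and computed abundances with Partek 6.6. The deposited unit is RPKM, given per gene symbol. The labels name hg19, and how transcripts were combined into symbols is not given in the sources used here. Positions come from GENCODE v44 on GRCh37, and promoters from RefSeq.

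RPKM was used as log2(RPKM + 0.1), with no further scaling. Genes of at least 0.5 RPKM in at least 2 samples (12713) entered limma 3.58.1 (R 4.3.3), with 1 model over the 5 groups, an abundance trend and the Benjamini-Hochberg adjustment. All tests were two-sided. Whole reads were recovered from the step of 1 read to within 0.1 read for all 9 members, with ANXA1 the farthest at 0.085, and gave exact binomial intervals (95%) for ratios of reads, which cover counting error only. A count of 0 allows up to 3 reads. Depth is an estimate, from 3719 genes with known transcript lengths. The fit was tested on simulated data. The members and gene lists were chosen with earlier results of these data known. The genes named are the 9 members, the listed pathway genes called with a fold change over 1.5 in a treatment, the 3 genes most like each called member, cell markers, and NR3C1, TSC22D3, FKBP5 and PER1 as a check of the Dex response. Pathway genes called with smaller changes were added after their values were seen. Alternatives were other pseudocounts, filters, scalings and variance models, only the samples of a comparison, the replicate number as a block, and each replicate left out, where the lone sample is assumed to vary like the other groups. For HPGD and PLA2G4A every alternative was run without a filter, a choice made after seeing the data. Software was Python 3.11.15, numpy 2.4.6, pandas 2.3.3, scipy 1.17.1 and matplotlib 3.10.9.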

Additional observations from a re-analysis of the deposited data

Results flagged for a closer look

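The level with a ligand differed between 2 h and 4 h for 5 members, by the limma test of the 4 h against the 2 h samples. With Dex, ALOX15B was higher at 4 h by 3.18 on the log2 scale (adjusted p = 8.8e-05), HPGD by 0.85 (adjusted p = 0.0086, fit without a filter) and PTGS1 by 0.71 (adjusted p = 0.046). Of these, ALOX15B and PTGS1 had passed the filter only through the Dex 4 h samples, and in the fit without a filter had an adjusted p of 0.00011 and 0.049. PTGER4 was lower at 4 h with Dex (-0.70, adjusted p = 0.012) and with CpdA (-1.13, adjusted p = 0.0021), and PTGES was lower at 4 h with CpdA (-0.37, adjusted p = 0.017). In each of these 6 differences both 4 h samples lay on the same side of both 2 h samples. The differences were picked for being called, so this adds no further support to the calls. These are differences in level, which equal differences in the effect of a ligand only where 1 vehicle level serves both times. Each ligand set against the vehicle sample whose header names the same time gave PTGER4 values, as log2 fold change, of 0.36 (2 h) and 0.17 (4 h) with Dex, and 0.11 and -0.52 with CpdA, so the change in PTGER4 between the times was smaller than in the levels. For PTGES with CpdA the same values were -0.03 and -0.23. A difference in the effect of a ligand against matched vehicle samples was not tested, and time in culture and time with a ligand cannot be told apart.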

How the results depend on the processing

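Over the 9 members and 8 comparisons, 51 of 72 results stayed on their side of the threshold under every alternative in which the member was tested. PTGS1 and ALOX15B had 16 alternatives a result, where PTGS2 had 19. Those 2 genes were not tested without a Dex 4 h replicate or with at least 1 RPKM required in every sample. Over 1280 alternative values, 51 lost a call, 20 gained one and 0 reversed a called direction, and 29 changed sign without a call in either fit. Members called at Dex 2 h numbered 2 without a filter, with at least 1 RPKM in every sample, and with only the 4 samples compared, and 2 to 4 with a replicate left out. The stricter filter left 4 members tested and gave 1 call at Dex 4 h, for Dex against CpdA at 2 h and for Dex 4 h against 2 h. Without a filter, CpdA 4 h against vehicle and against CpdA 2 h gave 1 call each. With a replicate left out, the counts ran from 2 to 5 at Dex 4 h, 0 to 1 at CpdA 2 h, 1 to 3 at CpdA 4 h, 1 to 4 for Dex against CpdA at 2 h, 4 to 7 at 4 h, and 1 to 3 between the times of either ligand. Among the pathway genes, Dex 2 h gave 1 with the stricter filter, and CpdA 2 h gave 0 without a filter, without an abundance trend and with only the 4 samples compared. Their counts with a replicate left out ran from 2 to 3 at Dex 2 h, 4 to 10 at Dex 4 h, 0 to 2 at CpdA 2 h and 2 to 10 at CpdA 4 h.

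With the replicate number as a block, members called numbered 4, 4, 0 and 3 for the 4 treatments, as without it, but PTGS1 between the Dex times had an adjusted p of 0.053, and ANXA1 between Dex and CpdA at 2 h one of 0.049 (log2 difference -0.11). Pairing by number was weak over all genes past the filter. The correlation of same-numbered deviations ran from -0.057 to 0.198 over the 10 pairs of groups, with 3 over 0.1. ANXA1 was nonetheless higher in replicate 1 than in replicate 2 of every group, as was the sum of RPKM over all genes. With only the 4 samples compared, PTGER2 and PTGER4 at Dex 2 h (adjusted p = 0.0671 and 0.0897), ANXA1 between the ligands at 4 h (0.0535) and PTGS1 between the Dex times (0.0979) were not called. Calls were gained in that setting for PTGS2 between the CpdA times (adjusted p = 0.00604), PTGER4 between the ligands at 2 h (0.0209) and PTGES between the ligands at 4 h (0.0356). A pseudocount of 1 or 0.01 moved ALOX15B at Dex 4 h to 2.52 or 7.64 on the log2 scale, and a pseudocount of 1 lowered the Dex 4 h values of PTGS1, PTGER2 and HPGD to 0.41, 0.71 and 0.38, all still called. With 2 samples a group, a small change of a gene with under 40 reads, such as PLA2G4A, was not detectable. The p-values rest on each gene's own spread within the 5 groups, drawn toward that of genes of like abundance.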
